A study of Mus musculus with 6 samples.

Results

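St14, Prss8, Prss22, Tmprss2, Tmprss4 and Hpn encode serine proteases and Spint1 and Spint2 encode Kunitz-type inhibitors that act on some of them. These 8 genes, 6 proteases and 2 inhibitors, were taken by name from the 24214 features counted in each of 6 RNA sequencing samples of the murine LUAD cell line 393P. They were chosen by name as a family, with earlier results of these data known. The study asked how the EMT-activating transcription factor ZEB1 changes LUAD cells. In the 393P_vector group, 3 samples came from 393P cells transfected with the empty vector, and in the 393P_ZEB1 group 3 samples came from 393P cells transfected with a ZEB1 expression vector. All 6 were described as transfectants of mouse lung cancer cells of the C57BL/6 strain, and the study's methods describe stable transfectants selected with puromycin or G418. Both groups derive from 1 cell line, no untransfected cells were among the samples, and the labels do not say whether the 3 samples of a group were separate transfections or cultures.

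Matriptase, encoded by St14, is an epithelial serine protease anchored in the plasma membrane, and prostasin, encoded by Prss8, is held there by a glycosylphosphatidylinositol (GPI) anchor. The 2 enzymes act in a common pathway in which each can promote the activation of the other, and matriptase cleaves cell surface and pericellular proteins such as the receptor PAR-2, pro-HGF and pro-urokinase. The inhibitors HAI-1 (Spint1) and HAI-2 (Spint2) are themselves membrane proteins of epithelial cells, and they restrain matriptase, prostasin and hepsin. TMPRSS2, TMPRSS4 and hepsin (Hpn) are type II transmembrane serine proteases like matriptase, while Prss22 encodes tryptase epsilon, a protease of airway epithelium that belongs to the tryptase family and is not anchored in the way matriptase is.

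All 8 transcripts were less abundant in 393P_ZEB1 cells, and the size of the difference ran from 1.5-fold for Spint2 to 233-fold for St14. The matriptase, prostasin and Spint1 transcripts were almost lost, Prss22 kept a measurable level, and Spint2 remained abundant. Each of the 8 passed edgeR's quasi-likelihood test with Benjamini-Hochberg adjustment at 0.05 in the lower direction, against 19.3% of the 13892 genes tested, while 18.3% of all genes were called higher and none of these 8 was. In either direction 37.6% of the tested genes were called. Of the 8, 7 were called lower by more than 4-fold, as were 4.62% of the tested genes, and in all 8 every 393P_ZEB1 sample lay below every 393P_vector sample, as in 26.5% of the tested genes. The median log2 fold change was -4.29 over the 8 and -0.02 over all genes tested. These counts are a description, since Prss8, Tmprss4 and Hpn passed the filter on low counts only through the 393P_vector samples and Tmprss2 passed it in only 1 393P_ZEB1 sample, so a difference in those 4 was built into their being tested.

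**Figure D1:**
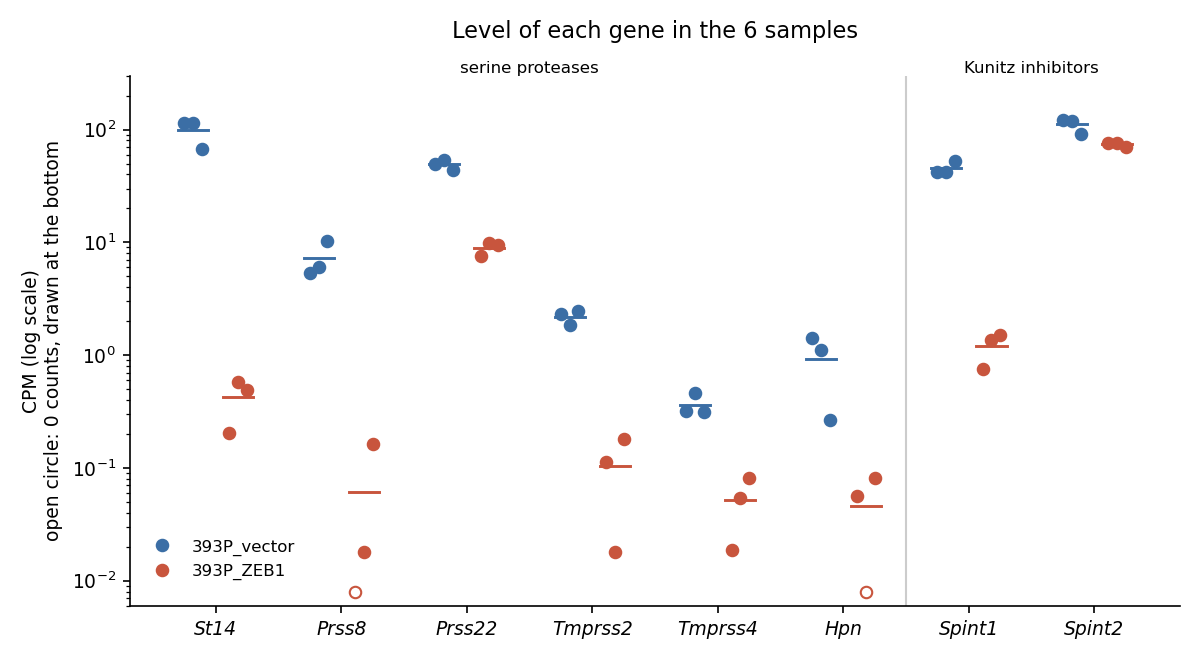
The level of each of the 8 genes, in CPM on a log axis, in the 3 393P_vector samples (blue) and the 3 393P_ZEB1 samples (red), with a horizontal line at each group mean and open circles at the bottom for samples with 0 counts. The groups are separate for every gene, and the gap is widest for St14 and narrowest for Spint2.

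The samples held between 54442450 and 79158012 counts, and 3 counts, at or under which a value is treated as not detected, were worth 0.0379 to 0.0551 CPM (counts scaled to library sizes normalized by the TMM method). The Zeb1 transcript stood at 21.16, 22.01 and 21.41 CPM in 393P_vector and 54.9, 48.9 and 51.3 CPM in 393P_ZEB1, so the level of Zeb1 followed the labels (log2 fold change 1.26, standard error 0.10, adjusted p = 6.06e-05 from edgeR's quasi-likelihood test). Zeb1 lies on chromosome 18, whose tested genes had a median log2 fold change of 0.64. Replicate 3 of 393P_vector stood apart, with at least a 2-fold difference from replicate 1 in 6.55% and from replicate 2 in 7.31% of 11794 genes, against 0.271% between replicates 1 and 2. Of 20 epithelial markers tested, 17 were lower and none higher in 393P_ZEB1. Among them, Cdh1 (E-cadherin) went from 162 ± 61.2 to 9.51 ± 0.718 CPM (SD, n = 3). The summed level of the 20 fell from between 5713 and 6572 CPM to between 2776 and 3074 CPM. Of 12 mesenchymal markers, 8 were higher and 1 lower, and the 8 include Zeb1, the gene carried by the expression vector. Vim (vimentin) went from 5508 to 7330 CPM (log2 fold change 0.41, standard error 0.12). Of 10 markers of lung epithelial lineages, 4 did not exceed 3 counts in any sample and Scgb1a1 had 0 counts in all 6, and 2 of the 3 that were tested were lower in 393P_ZEB1, so the epithelial label rested on the general markers and not on those of lung lineages. The markers of other cells stayed low in both groups, with sums for 8 fibroblast markers between 2.53 and 3.45 CPM in 393P_vector and between 2.81 and 3.65 CPM in 393P_ZEB1. For 8 leukocyte markers the sums were between 2.81 and 5.03 CPM and between 1.82 and 2.21 CPM, and for 6 endothelial markers between 2.88 and 3.2 CPM and between 0.846 and 1.42 CPM. The loss of the epithelial markers moved with every result below, and its part in them was not tested. In bulk RNA, fewer cells with a transcript and less of the transcript per cell cannot be told apart.

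St14 had the most negative log2 fold change of the 8 when all samples were used. Its counts were 6450, 6739 and 5640 in the 393P_vector samples and 11, 32 and 30 in the 393P_ZEB1 samples. In CPM the levels were 114.0, 114.5 and 67.9 against 0.206, 0.576 and 0.491. Replicate 3 was the lowest of the 393P_vector samples, and it was still far above each 393P_ZEB1 sample. The mean went from 98.8 ± 26.8 to 0.424 ± 0.194 CPM (SD, n = 3), with a log2 fold change of -7.85 with a standard error of 0.39 (adjusted p = 5.29e-06 from edgeR's quasi-likelihood test). This was the 14th most negative of the 13892 log2 fold changes. From the pooled counts, 18829 against 73, the ratio was 221 with a 95% exact interval of 176 to 282 that covers counting error only. The gene spans chr9:31088590-31131799 on the minus strand of GRCm38 and was counted over 19 exons, all of which had more than 10 reads in each 393P_vector sample and none of which did in a 393P_ZEB1 sample. Without replicate 3 of 393P_vector, the log2 fold change of St14 was -8.05.

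Prss8, for prostasin, was lower than St14 to begin with and fell almost to the limit of detection. Its counts were 300, 359 and 852 in 393P_vector and 0, 1 and 10 in 393P_ZEB1, or 5.3, 6.1 and 10.3 CPM against 0, 0.018 and 0.164 CPM. Here replicate 3 was the highest of the 393P_vector samples, opposite to its place for St14, and 2 of the 3 393P_ZEB1 samples were at or under 3 counts. The mean went from 7.22 ± 2.66 to 0.0606 ± 0.0898 CPM (SD, n = 3), a log2 fold change of -6.78 with a standard error of 0.69 (adjusted p = 0.000203 from edgeR's quasi-likelihood test). The ratio of pooled counts was 118, with an exact counting interval of 65.6 to 236. The size of the difference depended on replicate 3 of 393P_ZEB1, which gave 10 of the 11 counts of that group. Without that sample the log2 fold change was -9.33, more negative than the -7.95 of St14. Omitting any 1 sample gave values from -9.33 to -6.24. Prss8 spans chr7:127925717-127930113 on the minus strand, and 122 of its exon bases overlap those of Kat8, a histone acetyltransferase gene on the other strand. Kat8 itself had 11.9 CPM in 393P_vector and 13.3 CPM in 393P_ZEB1 (log2 fold change 0.16, adjusted p = 0.406 from edgeR's quasi-likelihood test), and whether the counting used strand is not given in the sources used here.

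Prss22, the tryptase gene, behaved differently from St14 and Prss8 in that it stayed well above the detection limit. It had 2825, 3159 and 3625 counts in 393P_vector and 405, 549 and 578 in 393P_ZEB1. The levels were 49.9, 53.7 and 43.6 CPM against 7.57, 9.88 and 9.47 CPM, and the samples of each group lay close together. The mean went from 49.1 ± 5.08 to 8.97 ± 1.23 CPM (SD, n = 3), a 5.47-fold difference with a log2 fold change of -2.45 with a standard error of 0.15 (adjusted p = 1.43e-05 from edgeR's quasi-likelihood test). The gene spans chr17:23993534-23998100 on the minus strand and has 6 exons, all with more than 10 reads in 393P_vector and 5 of them in 393P_ZEB1.

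Tmprss2, which encodes the protease that primes several respiratory virus surface proteins, was expressed at a low level. Its counts were 130, 108 and 203 in 393P_vector and 6, 1 and 11 in 393P_ZEB1, or 2.3, 1.84 and 2.44 CPM against 0.112, 0.018 and 0.18 CPM. All 3 393P_vector samples were at least 10 times any 393P_ZEB1 sample, of which 1 was under the limit of 3 counts. The log2 fold change was -4.36 (standard error 0.48, adjusted p = 0.000299 from edgeR's quasi-likelihood test), and the pooled counts gave a ratio of 21.0 (exact counting interval 13.1 to 35.8). Without replicate 3 of 393P_ZEB1 the log2 fold change was -5.04, and omitting any 1 sample gave values from -5.04 to -3.87. Tmprss2 lies on the minus strand of chr16:97564682-97611195. Between 3 and 6 of its 14 exons had more than 10 reads in the 393P_vector samples, and none had in 393P_ZEB1.

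Tmprss4, for another type II transmembrane protease, was the least abundant of the 8 in 393P_vector. It had 18, 27 and 26 counts there and 1, 3 and 5 counts in 393P_ZEB1. In CPM, 0.318, 0.459 and 0.313 stood against 0.0187, 0.054 and 0.0819, and 2 of the 393P_ZEB1 samples were at or under 3 counts. The log2 fold change was -2.73 (standard error 0.47, adjusted p = 0.00291 from edgeR's quasi-likelihood test), and the ratio of pooled counts, 71 to 9, was 6.76 (exact counting interval 3.37 to 15.4). No exon of Tmprss4 (chr9:45172726-45204075, minus strand, 13 exons) had more than 10 reads in any sample. An antisense transcript, Gm17099, shares 412 exon bases with it, so that reads of the 2 may not be told apart.

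Hpn, for hepsin, was the most variable of the proteases in 393P_vector. Its counts were 80, 65 and 22 there and 3, 0 and 5 in 393P_ZEB1, or 1.41, 1.105 and 0.265 CPM against 0.0561, 0 and 0.0819 CPM. Replicate 3 of 393P_vector was the low one, yet above each 393P_ZEB1 sample, and 2 of the latter were at or under 3 counts. The log2 fold change was -4.22 (standard error 0.88, adjusted p = 0.00755 from edgeR's quasi-likelihood test), and the pooled counts, 167 to 8, gave a ratio of 17.9 (exact counting interval 8.87 to 42.1). When any 1 sample was omitted, the log2 fold change ranged from -4.94 to -3.67 and stayed past the threshold (largest adjusted p = 0.0409 from edgeR's quasi-likelihood test), with -4.94 without replicate 3 of 393P_ZEB1 and -4.68 without replicate 3 of 393P_vector. Hpn occupies chr7:31098725-31115290 on the minus strand and 14 exons, of which at most 1 had more than 10 reads in any sample.

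ZEB1 is known to bind E-boxes of the form CACCTG, and the 250 bases before the start of a transcript were searched for these letters on both strands (CACCTG, or CAGGTG when read on the other strand). RefSeq windows on GRCm38.p6 were matched for 4 of the 8 genes, Hpn with 2 starts and Spint1, Spint2 and Tmprss2 with 1 each. The window at the outer Hpn start, chr7:31115327-31115576 on the minus strand, is shown because it held 1 match on each strand, which began 126 and 43 bases before the start and are in capitals.
Hpn: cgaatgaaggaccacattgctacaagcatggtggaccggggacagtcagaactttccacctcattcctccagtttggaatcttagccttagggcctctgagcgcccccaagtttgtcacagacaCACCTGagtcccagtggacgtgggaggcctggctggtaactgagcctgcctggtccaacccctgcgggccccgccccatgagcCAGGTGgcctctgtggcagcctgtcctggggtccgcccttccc
The window at the inner Hpn start and that of Tmprss2 held no match. Bases just after the outer Hpn start were not found in an annotated transcript of Hpn, while those after the inner start were. Over all 32526 RefSeq windows of this length, 17.3% held at least 1 match and 2.08% held at least 2. The same windows were searched for TACCTG, which differs from CACCTG in its first letter alone, and for ACCNGTT, the form bound by grainyhead-type factors, again on both strands. These occurred in 9.77% and 6.82% of all windows and in none of the 5 windows of these genes. A match is a run of letters and not a measured binding site, and windows without one say only that these letters are not in these 250 bases.

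Spint1, for HAI-1, had a more negative log2 fold change than 4 of the 6 proteases, with only St14 and Prss8 below it. Its place relative to Hpn was not settled, since limma voom gave -5.41 for Hpn and -5.04 for Spint1. Its counts were 2390, 2466 and 4356 in 393P_vector and 40, 75 and 92 in 393P_ZEB1. The levels were 42.2, 41.9 and 52.4 CPM against 0.748, 1.35 and 1.51 CPM, with replicate 3 the highest of both groups. The mean went from 45.5 ± 5.99 to 1.2 ± 0.401 CPM (SD, n = 3), a 37.9-fold difference with a log2 fold change of -5.24 with a standard error of 0.27 (adjusted p = 6.11e-06 from edgeR's quasi-likelihood test). Spint1 spans chr2:119237360-119249513 on the plus strand, and 10 or 11 of its 11 exons had more than 10 reads in the 393P_vector samples against 1 or 2 in the 393P_ZEB1 samples.

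Spint2, for HAI-2, was the exception among the 8 in that it kept most of its level. Its counts were 6893, 7079 and 7607 in 393P_vector and 4069, 4213 and 4262 in 393P_ZEB1. In CPM, 122, 120.3 and 91.6 stood against 76.05, 75.8 and 69.8, and the distance between the lowest 393P_vector sample and the highest 393P_ZEB1 sample was smaller than the range within 393P_vector. The mean went from 111 ± 17.0 to 73.9 ± 3.55 CPM (SD, n = 3), a log2 fold change of -0.59 with a standard error of 0.13 (adjusted p = 0.0107 from edgeR's quasi-likelihood test). The call was lost when replicate 3 of 393P_ZEB1 was left out (log2 fold change -0.54, adjusted p = 0.0555 from the same test). All 7 exons of Spint2 (chr7:29256330-29281977, minus strand) had more than 10 reads in every sample. For each of the 8 genes the exact two-sided permutation test over samples gave p = 0.1, the smallest that 3 samples against 3 allow.

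The upstream windows of both inhibitor genes are printed, a choice made with their CACCTG matches and fold changes known. The Spint1 window is chr2:119237110-119237359 on the plus strand and the Spint2 window is chr7:29281978-29282227 on the minus strand, both from RefSeq on GRCm38.p6, and capitals mark matches.
Spint1: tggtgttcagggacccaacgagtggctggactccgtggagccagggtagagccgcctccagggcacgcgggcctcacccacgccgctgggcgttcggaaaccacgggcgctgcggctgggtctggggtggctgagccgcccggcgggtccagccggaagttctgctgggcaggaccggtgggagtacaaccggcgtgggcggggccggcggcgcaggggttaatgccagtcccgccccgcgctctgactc
Spint2: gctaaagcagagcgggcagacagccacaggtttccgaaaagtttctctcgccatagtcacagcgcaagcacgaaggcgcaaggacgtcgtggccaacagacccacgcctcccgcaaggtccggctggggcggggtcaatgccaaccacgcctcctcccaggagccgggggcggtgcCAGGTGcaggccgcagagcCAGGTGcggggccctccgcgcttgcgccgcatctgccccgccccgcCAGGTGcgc
Spint1 had no match and Spint2 had 3, all reading CAGGTG on the strand of the gene and beginning 74, 55 and 9 bases before the start. Bases just after the start were found in an annotated transcript for Spint1 but not for Spint2. The windows with matches, Spint2 and outer Hpn, were thus those whose start was not matched in this way. Windows with at least 3 matches made up 0.249% of all 32526. Both windows were rich in G and C, at 72.8% for Spint1 and 69.6% for Spint2. With windows for 4 of the 8 genes, no relation between matches and fold changes can be tested.

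Per length of exon, the order of the 8 transcripts by mean level differed between the groups. Levels are given here as CPM per kb, which allows genes to be compared. In 393P_vector the order was Spint2 at 76.6, Prss22 at 37.2, St14 at 24.7, Spint1 at 20.1, Prss8 at 3.89, Tmprss2 at 0.697, Hpn at 0.511 and Tmprss4 at 0.161 CPM per kb. Of these neighbours in the order, the sample ranges of St14 and Spint1 overlapped, as did those of Tmprss2 and Hpn and of Hpn and Tmprss4. In 393P_ZEB1 the order was Spint2 at 50.9, Prss22 at 6.81, Spint1 at 0.531 and St14 at 0.106 CPM per kb, followed by Tmprss2, Prss8, Hpn and Tmprss4 between 0.0229 and 0.0329 CPM per kb, which include samples at or under 3 counts and whose order was not read. From St14 downward, the ranges of each gene and the next overlapped in 393P_ZEB1. St14 and Spint1 thus had overlapping levels in 393P_vector, while in 393P_ZEB1 they were separate with Spint1 above St14.

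The composition of the group changed with the levels. The summed level of the 6 proteases went from 67.2 ± 9.26 to 7.03 ± 1.01 CPM per kb (SD, n = 3), and that of the 2 inhibitors from 96.7 ± 9.09 to 51.4 ± 2.32 CPM per kb (SD, n = 3). The ratio of inhibitor to protease transcripts was 1.45, 1.37 and 1.52 in the 393P_vector samples and 8.97, 6.87 and 6.47 in the 393P_ZEB1 samples. The groups did not overlap, and the log2 ratio differed by 2.35 (exact two-sided permutation p = 0.1, the smallest possible). Without Prss22, the difference in the log2 ratio was 6.3. It was 2.97 when counts were not divided by exon length. The ratio concerns transcripts and not the amount or activity of the proteins. Its protease sum holds Prss22, Tmprss2 and Tmprss4, which are not among the inhibitor targets named above. With or without Prss22, the ratio is thus not a balance of inhibitors and targets.

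Within the proteases, Prss22 went from 55.6% ± 2.55 of the summed level in 393P_vector to 96.9% ± 1.38 in 393P_ZEB1 (SD, n = 3), while St14 went from 36.3% ± 5.53 to 1.46% ± 0.521 (SD, n = 3) and Prss8 from 6.08% to 0.433%. Within the inhibitors, Spint2 went from 78.9% ± 4.99 to 99.0% ± 0.378 (SD, n = 3). Spint1 and St14, an inhibitor and its main target, had a level ratio of 0.655, 0.647 and 1.36 in 393P_vector and 6.42, 4.14 and 5.42 in 393P_ZEB1. The 393P_vector sample with the high value was again replicate 3, and it lay below all 3 393P_ZEB1 samples. The log2 ratio of Spint1 to St14 differed by 2.65, that of Spint2 to Spint1 by 4.72, and that of Prss22 to St14 by 5.5 (exact two-sided permutation p = 0.1 each, the smallest possible). Genes of the same class thus did not change by equal amounts in these samples, although the last 2 ratios were chosen after the values had been seen.

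**Figure D2:**
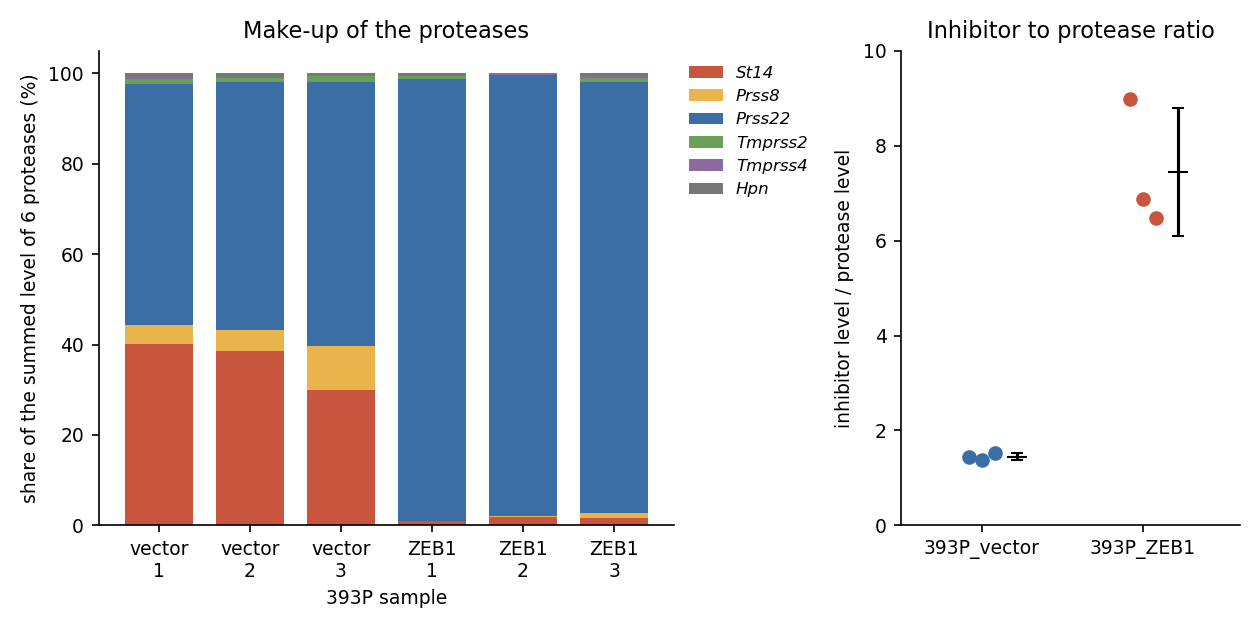
Left, the share of each protease gene in the summed level of the 6 proteases (CPM per kb, in percent) in each of the 6 samples; right, the ratio of the summed inhibitor level to the summed protease level, with 1 point per sample and the mean with its SD beside them. Prss22 takes over nearly the whole protease level in 393P_ZEB1, and the ratio is between 1.37 and 1.52 in 393P_vector and between 6.47 and 8.97 in 393P_ZEB1.

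Genes of some chromosomes shifted together between these lines, so each gene was set beside its chromosome and its 10 nearest tested genes, 5 on each side. The median log2 fold changes were -0.14 on chromosome 9 (St14, Tmprss4), -0.01 on chromosome 7 (Prss8, Hpn, Spint2), -0.43 on chromosome 17 (Prss22), 0.25 on chromosome 16 (Tmprss2) and -0.05 on chromosome 2 (Spint1). Relative to these medians, the log2 fold changes were -7.71 for St14, -6.76 for Prss8, -5.19 for Spint1, -4.6 for Tmprss2, -4.21 for Hpn, -2.59 for Tmprss4, -2.02 for Prss22 and -0.58 for Spint2. The chromosome medians thus moved none of these differences by more than 0.43.

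Neighbouring genes were mostly little changed around St14, Prss8, Hpn and Tmprss2, where at most 1 of 10 was called lower and 1 was called higher. The farthest of the 10 lay 3750 kb from St14, 3070 kb from Hpn, 1120 kb from Tmprss2 and 304 kb from Prss8, so not all are local. The neighbour called higher near St14 was Aplp2, 17.8 kb away (log2 fold change 0.49). Near St14 the largest called difference was in Arhgap32, 984 kb away (log2 fold change -1.97), and near Prss8 it was in Itgax, an integrin gene 199 kb away (-1.81). Near Tmprss2 it was Bace2, a transmembrane aspartyl protease gene, with 1.18, and near Hpn it was Fxyd5, a regulator of the sodium pump, with 1.23, both higher in 393P_ZEB1. Around Prss22, 7 of 10 neighbours were called lower and 1 higher. Prss27, which encodes the protease marapsin and lies 40.1 kb from Prss22, went from 1.28 to 0.0476 CPM (log2 fold change -4.71, standard error 0.33, adjusted p = 2.6e-05 from edgeR's quasi-likelihood test). Around Tmprss4, 4 were lower, and Mpzl2, an epithelial cell adhesion gene at 119 kb, went from 27.3 to 0.179 CPM (log2 fold change -7.25, standard error 0.31). Around Spint1, 4 of 10 were lower and none higher, with Ppp1r14d, a phosphatase inhibitor gene at 7.5 kb, having a log2 fold change of -4.8 (adjusted p = 0.00119 from edgeR's quasi-likelihood test). Itgax, Prss27 and Ppp1r14d had 393P_ZEB1 means of 0.0975, 0.0476 and 0.012 CPM, under the filter's cutoff of 0.17 CPM. These genes were tested through their 393P_vector levels, so a lower 393P_ZEB1 level was built in, though not the call itself. Around Spint2, 2 were lower, with the largest difference in Dpf1 (-0.87).

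**Figure D3:**
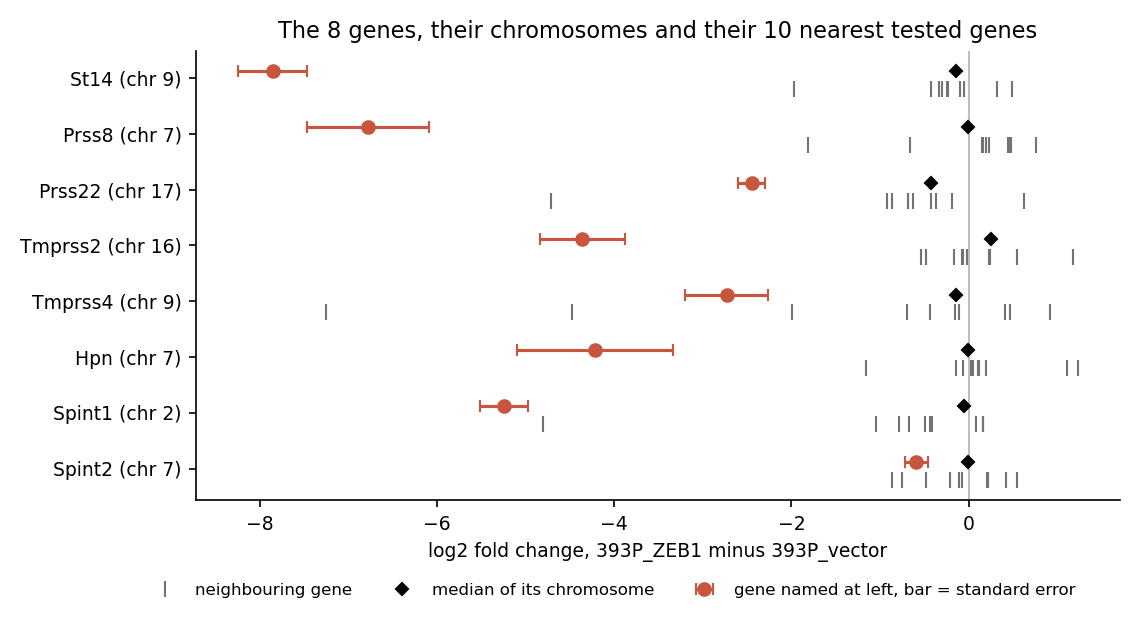
Log2 fold change, 393P_ZEB1 minus 393P_vector, of each of the 8 genes (red points, bars are standard errors), of the median tested gene of its chromosome (black diamonds) and of its 10 nearest tested genes (grey ticks). St14, Prss8, Tmprss2, Hpn and Spint1 lie to the left of all their neighbours, while Prss22 and Tmprss4 each have at least 1 neighbour with a larger decrease and Spint2 lies within the range of its neighbours.

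The profiles over the 6 samples were compared by the root mean square difference of log2(CPM + 0.5), centred for each gene, among 10100 genes with a mean of at least 5 CPM. The smallest differences from St14 were those of Cdcp1, a transmembrane glycoprotein gene (0.244), Cntn2, a contactin gene (0.288), and Wnt7a, a Wnt ligand gene (0.3). For Spint1 they were those of Psca (0.156), a gene for a GPI-anchored surface antigen, Serinc2 (0.163), a serine incorporator gene, and Serpinb5, for maspin (0.200). Among the 8 genes themselves, Spint1 was nearest to St14 (1.04) and Prss8 was nearest to Spint1 (0.566), while Spint2 was the farthest from both. With 6 samples in 2 groups, this measure reflects mostly the size of the difference between the groups, and low genes are drawn together by the added 0.5 CPM.

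Most other transmembrane serine protease genes were too low to test. Of 16 further transmembrane serine protease genes, 4 passed the filter on low counts, 2 of which were called lower and none higher. Tmprss11e, for a protease of the airway and squamous epithelium group known as DESC1, was at 26.1, 24.3 and 44.2 CPM in 393P_vector and 1.36, 1.19 and 1.13 CPM in 393P_ZEB1 (log2 fold change -4.68, standard error 0.28, adjusted p = 1.25e-05 from edgeR's quasi-likelihood test). Its level in 393P_vector replicate 3 was the highest, as for Prss8. Tmprss11bnl of the same cluster was at 0.848, 0.833 and 1.41 CPM against 0.0935, 0.18 and 0.311 CPM (log2 fold change -2.38, adjusted p = 0.00384 from edgeR's quasi-likelihood test). The median log2 fold change of the 4 was -1.2.

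Of 23 other GPI-anchored or tryptase-like serine protease genes, 8 were tested, 2 of which were lower and 1 higher, with a median log2 fold change of 0.15. The lower ones were Prss27, described above as a neighbour of Prss22, and Prss46, at 0.318, 0.238 and 0.361 CPM against 0.0935, 0.054 and 0.0983 CPM. Both were under the filter's cutoff of 0.17 CPM in every 393P_ZEB1 sample. They were tested only through 393P_vector, so a lower 393P_ZEB1 level was built in, though not the call itself. Tmprss11bnl above and Prss12 below were also under it in part of the group where they were lower. The higher one was Prss12, for neurotrypsin, a secreted protease of the nervous system that cleaves agrin. It was at 0.442, 0.136 and 0.337 CPM in 393P_vector and 6.07, 6.73 and 5.62 CPM in 393P_ZEB1 (log2 fold change 4.32, standard error 0.35, adjusted p = 5.78e-05 from edgeR's quasi-likelihood test). Its groups were separated by more than 10-fold. As a secreted protease it is not anchored like Prss8, although the list counts it beside GPI-anchored ones.

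Of 18 other Kunitz and serpin inhibitor genes, 8 were tested, with 3 higher and 2 lower and a median log2 fold change of 0.28. The higher ones were modest in size. App and Aplp2, whose precursor proteins include forms with a Kunitz domain, went from 406 ± 56.7 to 638 ± 49.9 CPM and from 278 ± 17.98 to 391 ± 20.7 CPM (SD, n = 3). Serpinb6a, an intracellular serpin gene, went from 419 ± 22.7 to 589 ± 14.8 CPM (SD, n = 3). These 3 had log2 fold changes of 0.65, 0.49 and 0.49, with adjusted p = 0.00697, 0.00745 and 0.00587 from edgeR's quasi-likelihood test, and none of them passed a test against a 1.5-fold change. Serpinb5, for maspin, was the largest decrease, from 18.1, 17.3 and 21.3 CPM to 0.0748, 0.054 and 0.278 CPM (log2 fold change -7.06, standard error 0.43). Its 393P_ZEB1 mean of 0.136 CPM was under the filter's cutoff of 0.17 CPM, so depth limits the size of this decrease.

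Among 19 genes for substrates, receptors and ligands of these proteases, 12 were tested, 10 of which were lower and 1 higher, with a median log2 fold change of -2.92. Epcam, for an epithelial adhesion protein that matriptase can cleave, was at 92.6, 92.2 and 182 CPM against 0.617, 1.76 and 1.56 CPM (log2 fold change -6.53, standard error 0.48, adjusted p = 3.25e-05 from edgeR's quasi-likelihood test). Cdcp1, for a surface protein that is also cleaved by matriptase, was at 97.5, 101.1 and 82.1 CPM against 0.318, 0.324 and 0.344 CPM (log2 fold change -8.14, standard error 0.17). Cdcp1 was also the gene nearest to St14 in its profile. Epcam is on the list of epithelial markers as well.

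F2rl1, for PAR-2, a receptor activated by cleavage, was the 1 gene of this list that was higher. Its levels were 103.7, 99.5 and 118.5 CPM in 393P_vector and 161.7, 156.5 and 159.8 CPM in 393P_ZEB1 (log2 fold change 0.57, standard error 0.10, adjusted p = 0.00365 from edgeR's quasi-likelihood test). The groups did not overlap, and the receptor transcript was thus higher where that of matriptase was nearly absent. Of the other genes, Plau and Met were picked out after their values were seen. Plau, for urokinase, whose precursor can be activated by matriptase, went from 654 ± 56.5 to 55.9 ± 2.92 CPM (SD, n = 3), a log2 fold change of -3.55 with a standard error of 0.12 (adjusted p = 8.66e-07 from edgeR's quasi-likelihood test). Met, for the HGF receptor, went from 454 ± 50.8 to 286 ± 15.03 CPM (SD, n = 3), a log2 fold change of -0.67 (adjusted p = 0.00331 from edgeR's quasi-likelihood test).

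**Figure D4:**
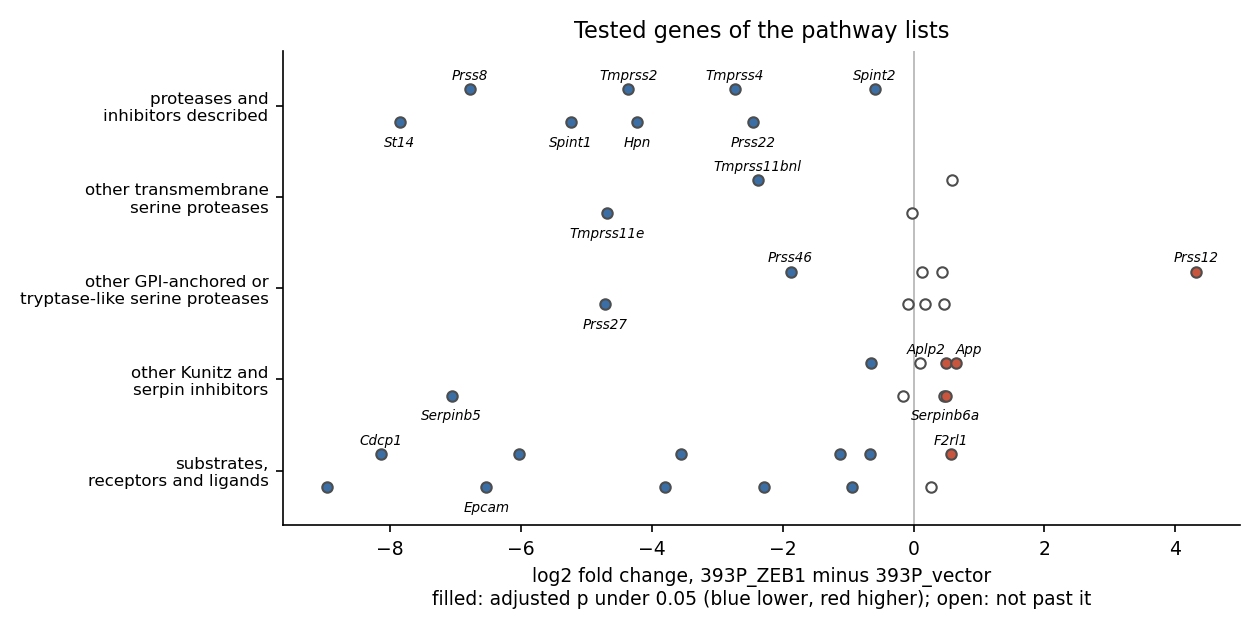
Log2 fold change, 393P_ZEB1 minus 393P_vector, of the tested genes of 5 lists, with 1 point per gene, filled where the adjusted p from edgeR's quasi-likelihood test was under 0.05 (blue lower, red higher) and open otherwise. The 8 genes described lie to the left of 0, the substrates do too except for F2rl1 and an open point, and the other proteases and inhibitors lie on both sides, with Prss12 at 4.32.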

How the data were processed

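Total RNA of 3 393P_vector and 3 393P_ZEB1 samples was sequenced on the SOLiD platform. Per the file headers, the authors deposited for each sample 1 table with an unnormalized read count, an RPKM (the count scaled by exon length and sequencing depth) and the number of exons with more than 10 reads, for 24214 features in GRCm38 coordinates. The aligner, counting program and annotation release are not given in the sources used here. The deposited counts were the main measure and the RPKM served only as an alternative for the level ratios.

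Samples were grouped by the vector named in their labels. Counts were filtered with filterByExpr (minimum count 10), normalized by TMM and fitted with edgeR 4.0.16 (robust quasi-likelihood, R 4.3.3, group as the only term), with Benjamini-Hochberg adjustment over 13892 genes and a threshold of 0.05. Across genes, edgeR's common biological coefficient of variation came to 0.184. The test was tested on simulated data. CPM used the TMM library sizes, and levels were CPM per kb of exon length. Single values were compared by exact two-sided permutation tests over samples (SciPy 1.17.1). Intervals of count ratios are exact (Clopper-Pearson, 95%) and, like the floor of 3 counts, cover counting error only. The p-values measure the spread between these samples, which may be technical.

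The 8 genes, the pathway and marker lists and the tests were chosen with earlier results of these data known. Named genes were the 8, the 3 highest and 3 lowest called genes of each pathway list, Zeb1, Cdh1 and Vim, the largest called neighbour of each gene, and the 3 nearest profiles to St14 and Spint1. Adgre1 was counted under an older symbol, Tmprss11b was counted once, as Tmprss11bnl, and Flg was not used here. Of the genes this rule names, 2 are not reported here. Alternatives were DESeq2 1.42.0 (its size factors, and its Wald test), limma 3.58.1 with voom and sample weights, no filter, at least 10 counts in every sample, a replicate block, a test against a 1.5-fold change, omission of the 10 most counted genes, leaving out each sample, and, for ratios, RPKM, no division by length and no Prss22.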

Additional observations from a re-analysis of the deposited data

How the results depend on the processing

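All 8 genes were called lower with DESeq2's size factors, DESeq2's Wald test, limma voom, no filter on low counts and without the 10 genes with the most counts. At least 10 counts in every sample left 4 of the 8 to test, and those 4 were called lower. Leaving out 1 sample at a time gave 7 to 8 of the 8, between 1861 and 3700 genes higher and between 1784 and 3776 lower, and the gene lost was Spint2. Without 393P_ZEB1 replicate 3 its log2 fold change was -0.54 (adjusted p = 0.0555 from edgeR's quasi-likelihood test), and against a 1.5-fold change its adjusted p was 0.728. Over all genes, limma voom called 3971 higher and 4100 lower, and the test against a 1.5-fold change 1081 higher and 1118 lower, against 2539 and 2679. The difference in the log2 inhibitor to protease ratio, 2.35, was 6.3 without Prss22 and 2.97 without division by exon length, and 2.21 to 2.44 with 1 sample left out. That of Spint1 to St14 was 2.47 to 3.01 with 1 sample left out. With the deposited RPKM these were 2.35 and 2.67.

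The labels number the samples alike in both groups, but deviations of same-numbered samples correlated with r between -0.109 and 0.169, and not every sample correlated best with its own number. With the replicate number as a block, 8 of the 8 were called lower, with 2180 genes higher and 2256 lower in all. The GPI-anchored or tryptase-like list had 5 genes lower without the filter, 2 to 5 with 1 sample left out and 0 when every sample had to hold 10 counts. Against a 1.5-fold change, the Kunitz and serpin list went from 3 higher and 2 lower to 0 higher and 1 lower, so App, Aplp2 and Serpinb6a lost their calls, as did F2rl1. The list of substrates, receptors and ligands went from 10 lower to 7 against that change, and held 8 to 10 with 1 sample left out. Prss8, Tmprss2, Tmprss4 and Hpn had at most 18 counts in all of 393P_ZEB1, so the depth limits the size of their differences, and with 1 cell line per group an effect of ZEB1 and other differences between the transfectants cannot be told apart.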

Other observations

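Several further serine protease genes were too low for the filter but were seen more in 393P_vector. They were picked out after their values were seen, so they carry no test. Prss32 was at 0.389, 0.153 and 0.241 CPM in 393P_vector and at 0, 0.018 and 0 CPM in 393P_ZEB1. Prss55 was at 0.265, 0.187 and 0.12 CPM against 0, 0 and 0.0164 CPM, and Prss41 at 0.318, 0.595 and 0.132 CPM against 0.0374, 0 and 0.0328 CPM. The 393P_vector samples lay above the 393P_ZEB1 samples for all 3 genes, and every 393P_ZEB1 value was at or under 3 counts. Among partners of the proteases that were not tested, Hgf, the ligand of the Met receptor, had a mean of 0.0333 CPM in 393P_vector and 0.0595 CPM in 393P_ZEB1, and Scnn1b and Scnn1g, for the beta and gamma subunits of the epithelial sodium channel that prostasin activates, stayed under 0.11 CPM in each sample.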
